A study of Rattus norvegicus with 12 samples.

Results

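The genes Pdgfra, Tcf21, Ddr2, Thy1, Vim, S100a4 and Fap, which are widely used to recognise cardiac fibroblasts, were followed in the left ventricle of male Sprague-Dawley rats. Members were all array probes whose target transcript carried 1 of these 7 symbols, which gave 8 probes of the 30367 on the array, and 7 genes of the 15715 with a symbol. Ddr2 had 2 probes and the other genes had 1 each, and 7 of the 8 probes, for 6 genes, were bright enough to be tested. Total RNA labelled with Cy3 was hybridised to 12 Agilent arrays, with 3 arrays for each of 4 groups. All rats ate a diet with 60% fructose for 8 weeks, so no group shows the ventricle without fructose. The normal sodium group received 0.64% NaCl and the low sodium group less than 0.01% NaCl. The other two groups, called normal sodium with AngII and, on the restricted diet, low sodium with AngII, had the same diets and a subcutaneous infusion of angiotensin II (AngII), the pressor hormone of the renin-angiotensin system, at 200 ng/kg/min during the last 4 weeks. The study fed 40 rats on each diet, no age is given, and no label ties an array to a stated number of rats, so a p-value here measures the spread between these arrays only.

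Cardiac fibroblasts lay down and turn over the collagen network that holds the ventricle together, and they proliferate and secrete more matrix under pressure load. They are recognised by a set of proteins with unrelated jobs. Pdgfra is the receptor for platelet-derived growth factor A on fibroblasts, and Ddr2 is a receptor tyrosine kinase that binds fibrillar collagen. Tcf21 is the transcription factor that fibroblast precursors of the epicardium need, and Thy1 is a surface glycoprotein. Fap is a surface serine protease of activated fibroblasts. Vim encodes the intermediate filament vimentin and S100a4 a calcium-binding protein, and neither is restricted to fibroblasts, since endothelial cells and leukocytes also make them. In RNA from whole ventricle, fewer fibroblasts and less RNA of a gene per fibroblast cannot be told apart.

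Of the 7 genes, 5 had a promoter window in the RefSeq table for the rat assembly GRCr8: Pdgfra, Tcf21, Vim, S100a4 and Fap. The 250 bases before the start of Vim and Fap, the members furthest below 0 in the mean low sodium effect, and of Pdgfra, a member whose groups overlapped in every comparison, are shown for reference, 5′ to 3′ on the strand of the gene. Capitals mark each match, on either strand, to an E-box (CANNTG), a GC box (GGGCGG), an AP-1 site (TGANTCA), a Smad box (CAGAC), the TATA box (TATAAA) or a TEAD site (GGAATG).
Vim, chr17:81577011-81577260, plus strand: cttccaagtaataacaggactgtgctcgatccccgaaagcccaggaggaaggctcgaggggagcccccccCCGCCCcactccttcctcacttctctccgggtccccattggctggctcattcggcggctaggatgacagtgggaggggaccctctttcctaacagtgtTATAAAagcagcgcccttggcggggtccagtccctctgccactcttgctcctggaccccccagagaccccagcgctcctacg
Fap, chr3:67616092-67616341, minus strand: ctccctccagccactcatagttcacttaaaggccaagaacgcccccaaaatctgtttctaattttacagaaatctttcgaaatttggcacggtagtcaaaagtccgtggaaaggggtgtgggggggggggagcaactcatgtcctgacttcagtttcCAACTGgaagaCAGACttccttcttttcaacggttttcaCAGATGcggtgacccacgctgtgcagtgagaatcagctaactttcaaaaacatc
Pdgfra, chr14:33408517-33408766, minus strand: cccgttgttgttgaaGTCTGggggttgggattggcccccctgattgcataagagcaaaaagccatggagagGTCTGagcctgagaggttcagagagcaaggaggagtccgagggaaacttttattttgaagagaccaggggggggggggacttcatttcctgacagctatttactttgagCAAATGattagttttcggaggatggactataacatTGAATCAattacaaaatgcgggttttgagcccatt
The window of Vim was 62.4% G or C and held 1 GC box, 180 bases before the start, and 1 TATA box, 82 bases before it. The window of Fap was 47.2% G or C and held 2 E-boxes, 93 and 54 bases before the start, with a Smad box between them at 82 bases. Pdgfra had an AP-1 site 35 bases before its start, an E-box at 70 bases and 2 Smad boxes at 179 and 235 bases, in a window that was also 47.2% G or C. Among the 33469 RefSeq windows of this length, 65.5% held an E-box, 42.9% a Smad box, 30.5% a GC box, 12.9% a TATA box, 12.1% a TEAD site and 6.34% an AP-1 site. Vim and Fap, whose values lay lower on low sodium, shared no motif of the 6 in these windows, and a match of letters is not evidence of binding.

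Levels below are log2 signals after subtraction of the 75th percentile of the array, so 0 is that percentile and 1 unit is a 2-fold difference. The 75th-percentile signal itself lay between 1399 and 1988 on the 12 arrays, local background between 20 and 29.5, and no spot was saturated. Each slide held 1 array of every group, and the replicate number is the slide. Non-uniform spots numbered 88 on replicate 1 of normal sodium and 0 to 3 elsewhere, and that array got the lowest weight, 0.279, when arrays were weighted by their fit. Cardiomyocyte genes such as Tnnt2 and Myh6 were bright, at means of 7.99 and 7.78. All 15 other fibroblast-enriched genes that the array names were above background.

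Vim and Fap were the members with the clearest pattern, and it followed the diet. Vim read 1.84, 2.05 and 1.97 on normal sodium (mean 1.96 ± 0.11, SD, n = 3) and 2.18, 2.34 and 2.40 on the same diet under AngII (2.30 ± 0.11). It read on low sodium 1.42, 1.52 and 1.81 (1.58 ± 0.20), and on low sodium with AngII 1.63, 1.66 and 1.64 (1.65 ± 0.01). All 6 low sodium arrays therefore lay below all 6 normal sodium arrays, with the highest low sodium value at 1.81 and the lowest normal sodium value at 1.84. The group means ran from normal sodium with AngII through normal sodium and low sodium with AngII to low sodium, and only the last neighbours in that order overlapped. Averaged over the infusion states, Vim was lower on low sodium by 0.52 ± 0.09 (SE, a 1.43-fold difference, 95% interval −0.71 to −0.32), with an unadjusted two-sided p of 0.00011 and an adjusted p of 0.125 by limma with Benjamini-Hochberg adjustment over 20020 probes. Within slides 1, 2 and 3 the same difference was −0.48, −0.61 and −0.46, and with the slide as a block the adjusted p was 0.107.

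The diets lay further apart in Vim under AngII than without it, but not beyond the error of the difference. Vim was lower on low sodium by 0.66 ± 0.12 under infusion (1.58-fold, limma adjusted p = 0.264) and by 0.37 ± 0.12 without it (1.29-fold, limma adjusted p = 0.626). Infusion itself went with a level 0.35 ± 0.12 higher on normal sodium (unadjusted p = 0.017 and adjusted p = 0.669 by limma), where the 2 sets of 3 arrays did not overlap, and 0.06 ± 0.12 higher on low sodium, where they did. The interaction, which is how far the infusion difference on low sodium exceeds the one on normal sodium, was −0.29 ± 0.17 (95% interval −0.67 to 0.10, limma adjusted p = 0.857).

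Fap, the protease, varied more between arrays than Vim. It read −2.73, −2.19 and −2.20 on normal sodium (−2.37 ± 0.31) and −2.18, −1.97 and −1.88 with AngII (−2.01 ± 0.15). On low sodium it read −3.35, −3.01 and −2.71 (−3.02 ± 0.32), and with AngII −2.35, −2.69 and −2.98 (−2.67 ± 0.32). Under infusion every low sodium array lay below every normal sodium array, while without it 1 normal sodium array (−2.73) was below the highest low sodium array (−2.71). The mean low sodium effect on Fap was −0.66 ± 0.15 (1.58-fold lower, 95% interval −0.997 to −0.32), with an unadjusted p of 0.0015 and an adjusted p of 0.154 by limma. It was −0.65 ± 0.22 without infusion and −0.66 ± 0.22 with it. The group means had the same order as those of Vim, and only normal sodium with AngII and normal sodium did not overlap as neighbours. Its slides differed more than those of Vim, at −0.39, −0.77 and −0.81, and with the slide as a block the limma adjusted p was 0.152. AngII went with Fap levels 0.36 ± 0.22 higher on normal sodium and 0.35 ± 0.22 higher on low sodium, which gave a mean AngII effect of 0.36 ± 0.15 (unadjusted p = 0.042 and adjusted p = 1.00 by limma), with 0.78, 0.27 and 0.02 on the 3 slides. When arrays were weighted, Vim (−0.55) and Fap (−0.75) passed the threshold in the mean low sodium effect, with limma adjusted p-values of 0.0475 and 0.0487.

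**Figure D1:**
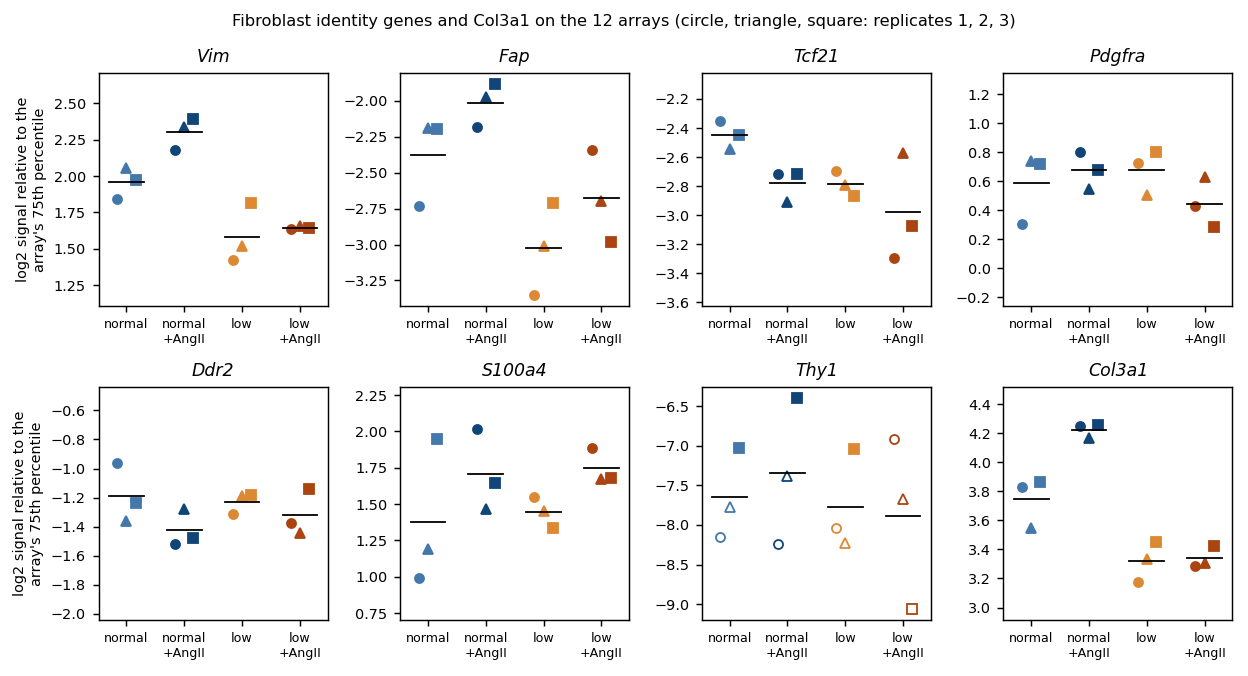
Log2 signal relative to the 75th percentile of the array (vertical axis, each panel with its own range) for the 7 fibroblast identity genes and Col3a1 in the 4 groups; each point is 1 array, symbols give the replicate, the line is the group mean, and open points of Thy1 are arrays not well above background. For Vim and Col3a1 all 6 low sodium arrays sit below all 6 normal sodium arrays, while the groups of Pdgfra overlap.

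Tcf21, the transcription factor, was the only other member below an unadjusted p of 0.05 in the mean low sodium effect. It read −2.35, −2.55 and −2.44 on normal sodium (−2.45 ± 0.10), −2.72, −2.91 and −2.71 with AngII (−2.78 ± 0.11), −2.69, −2.79 and −2.86 on low sodium (−2.78 ± 0.09) and −3.29, −2.57 and −3.07 on low sodium with AngII (−2.98 ± 0.37). The untreated normal sodium arrays were thus above the arrays of normal sodium with AngII and of low sodium, and replicate 2 of low sodium with AngII, at −2.57, lay just below the lowest of them. Unlike Vim and Fap, Tcf21 was lower with AngII on normal sodium, by 0.33 ± 0.17 (limma adjusted p = 0.671), as well as on low sodium without infusion, by 0.34 ± 0.17 (limma adjusted p = 0.729). Its mean low sodium effect was −0.27 ± 0.12 (unadjusted p = 0.044 and adjusted p = 0.383 by limma) and was not seen on slide 2 (−0.46, 0.04 and −0.39 on the 3 slides). Its mean AngII effect was −0.26 ± 0.12 (unadjusted p = 0.048 and adjusted p = 1.00 by limma). With the slide as a block the unadjusted p-values by limma were 0.062 and 0.066, and with array weights the mean effects were −0.15 and −0.16.

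The receptors Pdgfra and Ddr2 showed no difference between groups beyond their spread. Pdgfra read 0.30, 0.74 and 0.72 on normal sodium (0.59 ± 0.25), 0.80, 0.54 and 0.68 with AngII (0.68 ± 0.13), 0.72, 0.51 and 0.80 on low sodium (0.68 ± 0.15) and 0.43, 0.63 and 0.28 on low sodium with AngII (0.45 ± 0.17). All 4 groups overlapped, the mean low sodium effect was −0.07 ± 0.11, and its 95% interval of −0.31 to 0.17 spans folds of 0.81 to 1.12. Infusion gave 0.09 ± 0.15 on normal sodium and −0.23 ± 0.15 on low sodium, an interaction of −0.32 ± 0.22 (limma adjusted p = 0.859) that ran from −0.80 on slide 1 to 0.31 on slide 2.

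Ddr2, by its brighter probe, read −0.96, −1.36 and −1.24 on normal sodium (−1.19 ± 0.21), −1.52, −1.28 and −1.48 with AngII (−1.42 ± 0.13), −1.31, −1.19 and −1.18 on low sodium (−1.23 ± 0.07) and −1.38, −1.45 and −1.14 on low sodium with AngII (−1.32 ± 0.16). The mean low sodium effect of 0.03 ± 0.10 (95% interval −0.18 to 0.24) was near 0. The second Ddr2 probe, for the same transcript, had group means of −1.46, −1.21, −1.29 and −1.46 in that order, and a mean low sodium effect of −0.04 ± 0.12. Both probes were near 0 in the mean low sodium effect, but they had opposite signs in each diet comparison. Without infusion the brighter gave −0.04 ± 0.13 and the second 0.17 ± 0.16, and under infusion they gave 0.10 ± 0.13 and −0.25 ± 0.16. The probes also disagreed on AngII on normal sodium, where the brighter gave −0.24 ± 0.13 and the second 0.25 ± 0.16. No direction is given for Ddr2 in these comparisons.

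S100a4, the calcium-binding protein, differed little between diets and had its widest spread on normal sodium. It read 0.99, 1.19 and 1.95 there (1.38 ± 0.51), 2.02, 1.47 and 1.64 with AngII (1.71 ± 0.28), 1.55, 1.45 and 1.34 on low sodium (1.45 ± 0.11) and 1.89, 1.67 and 1.68 on low sodium with AngII (1.75 ± 0.12). On low sodium the infused arrays were all above the arrays without infusion, by 0.30 ± 0.23 on average, whereas on normal sodium the sets overlapped and the difference was 0.33 ± 0.23, or 0.14 without replicate 1 and 0.62 without replicate 3 of normal sodium. The mean AngII effect was 0.32 ± 0.16 (unadjusted p = 0.077 and adjusted p = 1.00 by limma), with 0.68, 0.25 and 0.02 on the 3 slides, and the mean low sodium effect 0.05 ± 0.16 (95% interval −0.30 to 0.41). Replicate 3 of normal sodium, at 1.95, set much of that spread, and the low sodium effect without infusion, 0.07 ± 0.23, ran from −0.13 to 0.35 as single arrays were left out.

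Thy1, the surface glycoprotein, was not measured well enough to compare. Its processed signals ran from 3.52 to 20.6 and were well above background on 3 of 12 arrays, 1 each of normal sodium, normal sodium with AngII and low sodium, and on 0 of 3 of low sodium with AngII. Those arrays, with signals of 13.9, 20.6 and 14.7, were all on slide 3, where local background was 20 to 21 against 24 to 29.5 on the other slides. The Thy1 probe was therefore not tested and has no fold difference.

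Counted together, 0 of the 6 tested members passed an adjusted p of 0.05 by limma in any of the 7 comparisons, and neither did any other probe of the array (0% in each). With array weights, 81 probes passed in the mean low sodium effect and 8 in low sodium with AngII. In the mean low sodium effect 4 of 6 were below 0, against 55.1% of all probes, and 3 (Vim, Fap and Tcf21) were lower at an unadjusted p under 0.05, against 8.47%. With the slide as a block Tcf21 missed that level. Vim was the only member whose 6 low and 6 normal sodium arrays did not overlap, a separation downward that 0.979% of probes showed. The median of the 6 members in this comparison was −0.17, against −0.02 for all probes.

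The separate diet comparisons gave the same number of members below 0, 4 of 6, against 51.7% of all probes without infusion and 58.2% with it. Without infusion, Vim and Fap were lower at an unadjusted p under 0.05 (4.16% of all probes), and the arrays of Vim and Tcf21 did not overlap (5.9%). With infusion, Vim and Fap were lower at that p (7.41%) and were also the members without overlap (12.3%). The medians of the 6 members were −0.19 and −0.21, against −0.01 and −0.05 for all probes. The diet comparisons with and without infusion share no array, and the mean effect is made of both.

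AngII on normal sodium left 4 of 6 members above 0 (54.2% of all probes), of which Vim was higher at an unadjusted p under 0.05 (4.24%) and none was lower (3.02%). Arrays did not overlap for Vim and Fap, higher with AngII (7.47%), and for Tcf21, lower (5.6%), and the median was 0.21 against 0.02 for all probes. On low sodium 3 of 6 members were above 0 (45%), 0 were higher (0.879%) or lower (0.829%) at an unadjusted p under 0.05, and S100a4 alone was higher without overlap (3.08%). In the mean AngII effect 3 of 6 members were above 0 (50.2%). Vim and Fap were higher at an unadjusted p under 0.05 (1.82%) and Tcf21 lower (1.06%), the last not with the slide as a block. No member passed that level in the interaction, where 2.1% of probes did so upward and 2.96% downward. The comparisons of AngII and of diet share arrays and are not independent of each other.

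**Figure D2:**
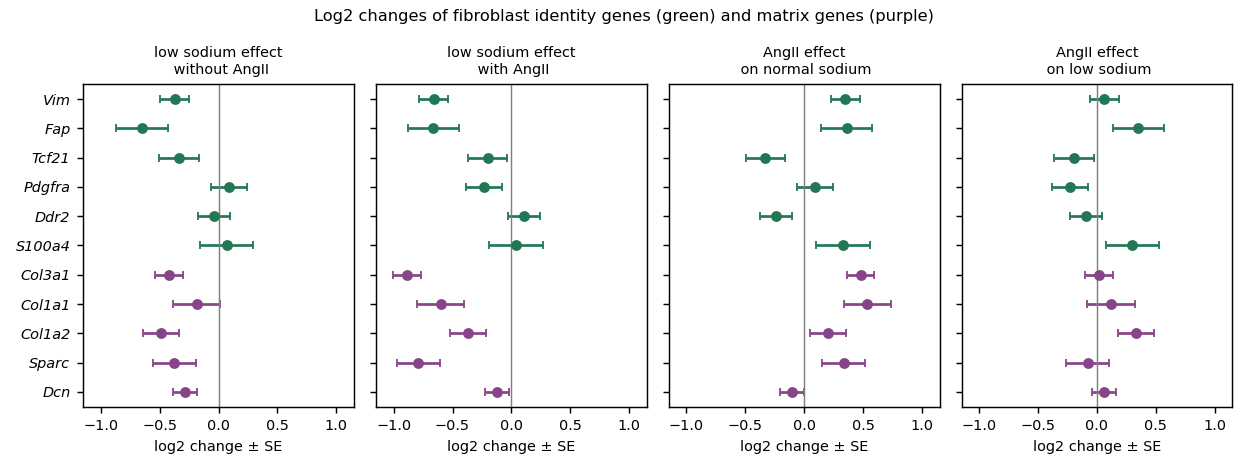
Log2 changes with their standard errors (horizontal axis) for 6 fibroblast identity genes (green) and 5 matrix genes (purple) in the low sodium effect without and with AngII and in the AngII effect on normal and low sodium. Vim and Fap sit left of 0 in both low sodium panels with the matrix genes. Ddr2, by its brighter probe only, and S100a4 sit between −0.04 and 0.10 there, and Pdgfra at 0.09 and −0.23.

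Col3a1, the chain of type III collagen that fibroblasts secrete into the ventricular wall, was followed on the same arrays for contrast. It read 3.83, 3.55 and 3.86 on normal sodium (3.74 ± 0.17), 4.25, 4.16 and 4.26 with AngII (4.22 ± 0.05), 3.17, 3.34 and 3.45 on low sodium (3.32 ± 0.14) and 3.28, 3.31 and 3.43 on low sodium with AngII (3.34 ± 0.08). As with Vim, all low sodium arrays lay below all normal sodium arrays. The mean low sodium effect on Col3a1 was −0.65 ± 0.08 (1.57-fold lower, limma adjusted p = 0.116), and under infusion it was −0.88 ± 0.12 (1.85-fold lower, limma adjusted p = 0.079). Leaving out replicate 2 of normal sodium brought the limma adjusted p of the mean effect to 0.0279, and array weights to 0.0401.

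Whether a member followed Col3a1 was tested from the difference between their log2 values within each array, over 36 pairs of member and comparison, with a two-sided exact permutation test of the arrays and Benjamini-Hochberg adjustment over the 36. The permutation did not keep the arrays of a slide together, so these p-values take no account of the slides. For Ddr2 the excess of Col3a1 was smaller on low sodium by 0.69 ± 0.08 (exact permutation p = 0.005, the smallest possible, adjusted 0.09). It was smaller by 0.71 ± 0.18 for S100a4 and by 0.58 ± 0.14 for Pdgfra (exact permutation p = 0.01, adjusted 0.09, for each). Averaged over the infusion states, Col3a1 was thus lower on low sodium relative to these 3 members on all slides. The slides gave 0.53 to 0.82 for Ddr2, 0.33 to 1.02 for S100a4 and 0.46 to 0.83 for Pdgfra. Without infusion, slide 2 went the other way for Pdgfra (0.02) and slide 3 for S100a4 (0.20). No pair passed an adjusted p of 0.05, and all pairs use the same Col3a1 values, so they are not independent of each other. For Tcf21 the value was −0.39 ± 0.13 (exact permutation p = 0.035, adjusted 0.21).

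For Vim and Fap the values were closest to 0. On low sodium, averaged over the infusion states, Col3a1 minus the member differed by −0.14 ± 0.09 for Vim (exact permutation p = 0.175, adjusted 0.343) and 0.00 ± 0.18 for Fap (exact permutation p = 1.0). The Fap mean joined opposite signs, 0.23 ± 0.25 without infusion and −0.22 ± 0.25 with it. Vim was at −0.05 ± 0.13 without infusion and −0.23 ± 0.13 with it. In the mean effect slides 1, 2 and 3 gave −0.33, 0.08 and −0.16 for Vim and −0.42, 0.24 and 0.18 for Fap. With AngII, averaged over diets, the excess of Col3a1 was larger by 0.51 ± 0.13 for Tcf21 (exact permutation p = 0.02, adjusted 0.144), 0.41 ± 0.08 for Ddr2 (exact permutation p = 0.01, adjusted 0.09) and 0.32 ± 0.14 for Pdgfra (exact permutation p = 0.045, adjusted 0.231). The second Ddr2 probe, an alternative added after seeing the data, gave 0.21 ± 0.14 there (exact permutation p = 0.145, adjusted 0.36), and −0.61 ± 0.14 in the mean low sodium effect (exact permutation p = 0.005, adjusted 0.12). For Vim, Fap and S100a4 the same AngII quantity lay between −0.11 and 0.04. Comparisons of 3 against 3 arrays cannot go below a p of 0.10 by this test, so none of them is given a call.

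**Figure D3:**
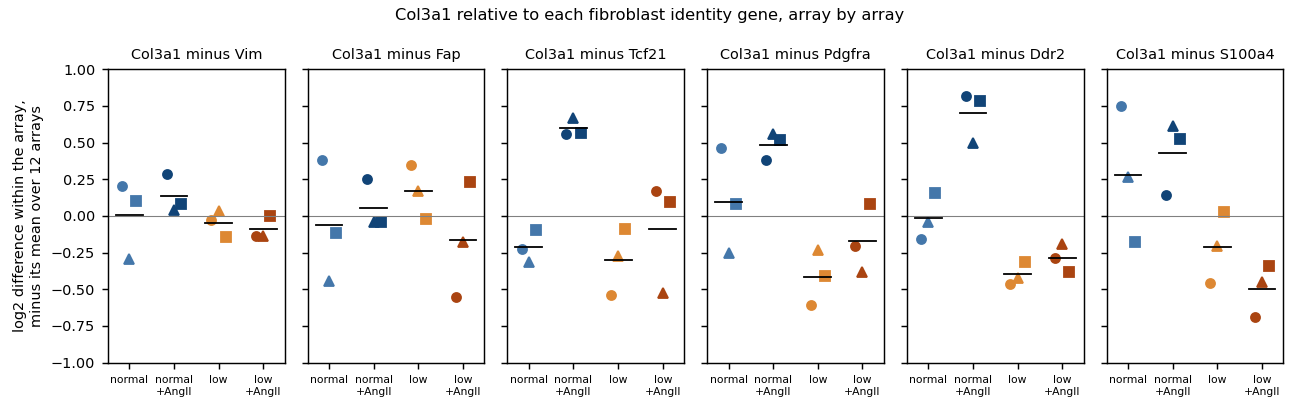
Col3a1 minus each member in log2 units within each array, less its mean over the 12 arrays (vertical axis), for 6 fibroblast identity genes in the 4 groups; points are arrays, symbols give the replicate, and lines are group means. Group means for Ddr2, Pdgfra and S100a4 sit lower on low sodium, with points of Pdgfra and S100a4 that overlap between diets. Group means for Vim and Fap sit near 0, with a wide spread of the Fap points.

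The other matrix genes were also below 0 on low sodium. By their brightest probes, all 13 matrix genes named on the array were below 0 in the mean low sodium effect (55.1% of all probes). All 13 were lower at an unadjusted p under 0.05 by limma (8.47%), with a median of −0.43 against −0.02 for all probes. Arrays of the 2 diets did not overlap for 3 of them, Col1a2, Col3a1 and Sparc (0.979%). Second probes gave −0.06 for Fn1 and −0.33 for Eln (unadjusted p = 0.80 and 0.084 by limma), −0.64 for Col1a1 and −0.46 for Bgn. Values were −0.39 for Col1a1 and −0.43 for Col1a2, chains of type I collagen, −0.58 for the collagen-binding glycoprotein Sparc and −0.82 for the matricellular protein Postn. Postn was dim, above background on 9 of 12 arrays and 1 of 3 on normal sodium, and its value was −0.33 with normexp background correction and −0.10 in the authors' deposited table. Of the small proteoglycans, Dcn was at −0.20, Bgn by its brighter probe at −0.28 and Lum at −0.31, and fibronectin (Fn1) gave −0.35. On low sodium with AngII the matrix median was −0.60, and 11 of the 13 were lower without overlap (12.3% of all probes). In the mean low sodium effect with the slide as a block, Fn1 had an unadjusted p of 0.0501 by limma, so 12 of the 13 stayed under 0.05 there. None of the 13 passed an adjusted p of 0.05 by limma, as for the members. With array weights Eln, Postn and Col3a1 passed in the mean low sodium effect (limma adjusted p = 0.0478, 0.0487 and 0.0401), and Col3a1 and Postn on low sodium with AngII (0.0128 and 0.0267).

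Of 15 other fibroblast-enriched genes tested, some of which also encode matrix proteins, 12 were below 0 in the mean low sodium effect (55.1% of all probes). Their median was −0.29, and 7 were lower at an unadjusted p under 0.05 by limma (8.47%). The 4 with the smallest p were Cilp, a matrix protein of stressed fibroblasts, at −1.20, Mrc2, the collagen uptake receptor, at −0.51, Cd248 (endosialin) at −0.42 and Mfap5, a microfibril protein, at −0.35. Islr, at −0.53, was further from 0 than Mrc2 but had a larger p, and 3 of the 15 (Tbx20, Scara5 and Fbln1) were above 0.

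Of 10 activation genes, such as those of myofibroblasts, 9 were above 0 with AngII on normal sodium (54.2% of all probes). Their median there was 0.53. With AngII on low sodium 6 of 10 were above 0 (45% of all probes), with a median of 0.04. Between the diets under infusion, 9 of 10 were lower on low sodium (58.2% of all probes), with a median of −0.36 (−0.20 in the authors' deposited table). Without infusion 6 of 10 were lower (51.7%), with a median of −0.13 (−0.03 in that table). In the mean low sodium effect 6 of 10 were below 0, near the 55.1% of all probes. The other 4 were above 0, and the median was −0.19. The 4 with the smallest p were below 0, with Thbs4 at −0.92, Tgfb1 at −0.58, Ltbp2 at −0.55 and Ccn2 at −0.46. The 4 above 0 were Comp at 0.33, the smooth muscle gene Tagln at 0.32, Cthrc1 at 0.15 and Acta2, the smooth muscle actin of myofibroblasts and vessels, at 0.13.

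Of 14 genes for ligands and relatives of the members, 12 were below 0 in the mean low sodium effect (55.1% of all probes), with a median of −0.18. Nes, an intermediate filament protein that assembles with vimentin, was at −1.05 ± 0.23 and S100a11, a relative of S100a4, at −0.51 ± 0.12. The Pdgfra ligand gene Pdgfc was at 0.32 ± 0.13 and Ddr1, the other collagen receptor of its family, at −0.34 ± 0.15. Dpp4, the protease most like Fap, was at −0.13 ± 0.13, and Pdgfrb, the receptor of pericytes and fibroblasts, at −0.21 ± 0.10.

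Several markers of other cells that make vimentin or S100a4 were also below 0 on low sodium. All 8 macrophage and leukocyte genes were below 0 in the mean low sodium effect (median −0.45, with Adgre1 at −0.81 and Csf1r at −0.68). So were all 7 endothelial genes (median −0.27, with Tie1 at −0.66 and Cdh5 at −0.40), against 55.1% of all probes. The macrophage and leukocyte median was −0.31 in the authors' deposited table and with normexp. Replicate 2 of low sodium was the lowest in these genes. With each gene centred on its mean over the arrays, they averaged −0.13, −0.82 and −0.03 on low sodium replicates 1, 2 and 3. The 5 T and B cell genes had a median of −0.21, with Cd4 at −0.59, but their median was 0.036 in the authors' deposited table. Of these 5, 1 was lower at an unadjusted p under 0.05 by limma (8.47% of all probes). The summed linear signal of the 8 macrophage genes, in units of the 75th percentile, was 1.56 to 1.84 on normal sodium, 1.68 to 1.84 with AngII, 0.95 to 1.51 on low sodium and 1.27 to 1.41 on low sodium with AngII. That of the 7 endothelial genes overlapped between groups (22.3 to 35.1, 24.5 to 26.2, 21.0 to 26.2 and 22.5 to 23.3). For the 6 fibroblast identity genes it was 7.67 to 10.3, 10.1 to 11.04, 7.73 to 8.50 and 8.24 to 8.84. Vim and S100a4, neither restricted to fibroblasts, weigh most in that sum, with mean log2 levels of 1.87 and 1.57. Fap and Tcf21, at −2.52 and −2.75, weigh least. The T cell marker Cd3e was too dim to test, while cardiomyocyte genes had a median of −0.09 and smooth muscle and pericyte genes a median of 0.04 (−0.0020 in the authors' deposited table). The part of these other cells in the Vim and Fap values was not tested.

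**Figure D4:**
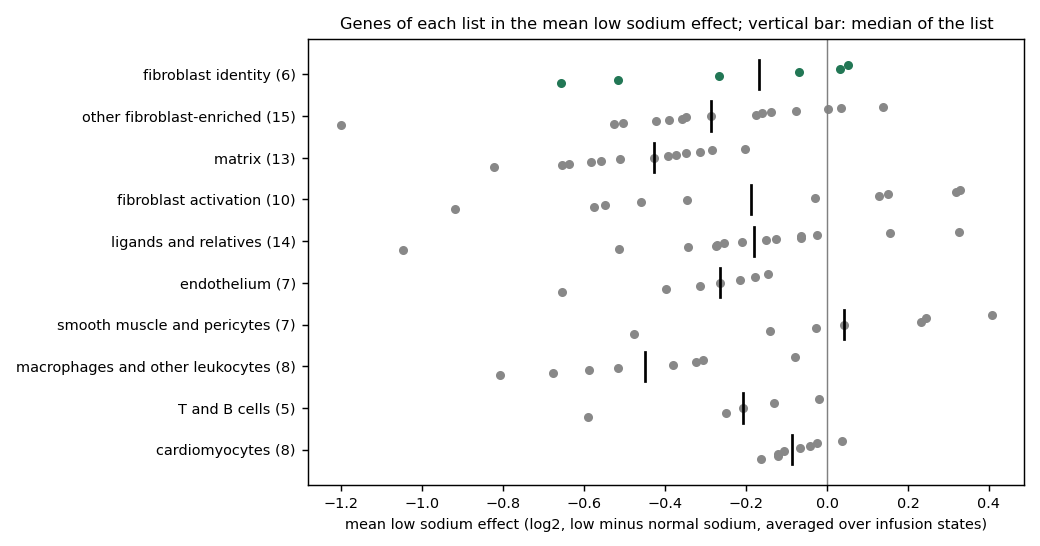
Mean low sodium effect (horizontal axis, log2, low minus normal sodium averaged over infusion states) of each gene tested in 10 lists (rows, number of genes in brackets); points are genes and the vertical bar is the list median. The 6 fibroblast identity genes (green) run from −0.66 to 0.05, and all 13 matrix genes and all 8 macrophage and leukocyte genes are below 0.

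Likeness across the 12 arrays was described by Pearson's r of the log2 values. Vim and Fap had a Pearson correlation of 0.90 (0.75 after group means were removed), and Vim and Col3a1 had 0.92 (0.19 after that removal), so the likeness of the latter pair lay between groups. By its brighter probe, Ddr2 ran against Pdgfra, with −0.60 over all arrays and −0.86 within groups. Likeness was not computed for the second Ddr2 probe, so this opposition is not given for the gene. Among 11142 genes, those most like Vim were Dact2 (0.96), Gnb1 (0.95) and Emp1 (0.95), and those most like Fap were Bzw1 (0.97), Mfap5 (0.94) and Prmt3 (0.94). Pdgfra was most like C1qtnf7 (0.92), Uspl1 (0.86) and Vcl (0.85), and Tcf21 most like Kcnk13 (0.85), Ssbp4 (0.83) and C1h16orf54 (0.82). For Ddr2 they were Leng1 (0.90), Nvl (0.90) and Ptp4a2 (0.88), and for S100a4 Traf3ip2 (0.90), Cyb5d1 (0.87) and Wsb1 (0.87). These coefficients describe 12 arrays that share slides, diets and scaling.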

How the data were processed

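The deposited intensity of each spot had its background subtracted, with no scaling between arrays, by version 10.7.3.1 of Feature Extraction (Agilent), per the file headers, while the submitters' processing notes list version 11.0.1.1 beside limma and R 3.3.04. The authors' deposited value table holds log2 values of 20438 probes, and how these were scaled is not given in the sources used here. The members and lists were chosen with earlier results of these data known.

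Control spots (1377) and outlier-flagged spots (296 to 421 per array) were left out, spots of a probe were averaged (Vim and Pdgfra have 10 each), and the 75th percentile over non-control spots was subtracted from log2 signals. Probes well above background on all arrays of at least 1 group were tested (20020). Symbols came from RefSeq (GRCr8) by accession, for 18758 of 30367 probes; promoter windows are from its table. A gene takes its brightest tested probe. All probes of the members, the matrix genes listed, and up to 4 genes of each further list by p in the mean low sodium effect are named. Acta2, Dpp4, Pdgfrb, Tnnt2, Myh6, Islr, Bgn, Eln, second probes of matrix genes and genes named to complete a count were added after values were seen.

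Limma 3.58.1 (R 4.3.3) fitted 1 mean per group over 12 arrays, with two-sided moderated tests and Benjamini-Hochberg adjustment at 0.05. Within-array differences were compared by exact permutation tests, with the infusion state or diet as stratum in mean effects. The limma step was tested on simulated data. Replicate numbers mark slides per the file headers: 17 of 18 same-numbered pairs of arrays had residual correlations over 0.1 (lowest 0.05, median 0.22), against a median of −0.18 for other pairs. Each group kept the same place on every slide, so place and group cannot be told apart. Alternatives were normexp background correction (offset 50), quantile normalization, other percentiles, the authors' table, other filters, the mean of a gene's probes, array weights, the slide block and leaving out each array.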

Additional observations from a re-analysis of the deposited data

How the results depend on the processing

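No probe passed the threshold in any comparison as reported, and the same count of 0 was found with the replicate block (the slide as a block), with which every member kept an adjusted p above 0.05 by limma and Tcf21 lost an unadjusted p under 0.05 in both mean effects. In AngII on normal sodium, limma called 6 probes with normexp correction, 5 in the authors' table, 3 with a filter on all 12 arrays, and 0 to 9 as single arrays were left out, 9 without replicate 1 of low sodium. In low sodium with AngII it called 3, 1, 2, 2 and 8 with normexp, quantile normalization, the authors' table, the strict filter and array weights, and 0 to 3 without single arrays. In low sodium without AngII leaving out arrays gave 0 to 1. In the mean low sodium effect it called 4 with normexp, 1 without a filter, 81 with array weights, and 0 to 20 without single arrays, 20 without replicate 2 of normal sodium. The cause was not tested.

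Vim ran from −0.57 to −0.47 and Fap from −0.75 to −0.57 in the mean low sodium effect without single arrays. Small values changed sign. Col3a1 minus Fap in the mean low sodium effect was −0.074, −0.099 and −0.098 with normexp, quantile normalization and the authors' table, and −0.096 to 0.11 without single arrays. With the mean of its probes Ddr2 was at 0.0039 in AngII on normal sodium, 0.063 and −0.073 in low sodium without and with AngII, −0.0051 in the mean low sodium effect and −0.14 in the interaction; the mean low sodium effect was −0.034 with normexp and −0.021 in the authors' table. S100a4 was at −0.041 in low sodium with AngII in the authors' table, and with array weights at −0.099, −0.039 and −0.069 in low sodium without AngII, with AngII and on average, and at 0.061 in the interaction, which was 0.019 with the percentile over probes, an alternative added after seeing the data. The Fap interaction was 0.057, 0.25 and 0.039 with quantile normalization, array weights and that percentile, and Pdgfra in low sodium without AngII was −0.0027 with array weights. In low sodium without AngII, Col3a1 minus Tcf21 was 0.19 and 0.072 and Col3a1 minus Vim 0.099 and 0.040 with normexp and the authors' table. In that table Col3a1 minus Vim was 0.00068 in AngII on low sodium, and Col3a1 minus S100a4 was 0.031 in the mean AngII effect.

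Single arrays turned the sign of other small values. Ranges were −0.053 to 0.16 for Pdgfra in AngII on normal sodium and −0.052 to 0.17 in low sodium without AngII, −0.068 to 0.29 for the Tcf21 interaction, −0.13 to 0.072 and −0.014 to 0.088 for Ddr2 in low sodium without AngII and on average, −0.020 to 0.18 for Vim and −0.055 to 0.083 for Col3a1 in AngII on low sodium, and −0.18 to 0.17 for the Fap interaction. S100a4 ran from −0.13 to 0.35, −0.084 to 0.19 and −0.044 to 0.20 in low sodium without AngII, with AngII and on average, and from −0.32 to 0.16 in the interaction. Col3a1 minus Tcf21 and minus Vim ran from −0.19 to 0.032 and −0.20 to 0.048 in low sodium without AngII. In AngII on normal sodium, Col3a1 minus Vim, S100a4 and Fap ran from −0.018 to 0.23, −0.081 to 0.38 and −0.074 to 0.34, and in the mean AngII effect from −0.031 to 0.093, −0.18 to 0.049 and −0.21 to 0.0023.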

Other observations

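Genes that are high in atria varied widely between these ventricle arrays. In the mean low sodium effect Nppa, which encodes atrial natriuretic peptide, was at −1.78 ± 0.58 and Sln, sarcolipin of atrial muscle, at 2.19 ± 0.86, neither below an adjusted p of 0.05 by limma, while Myl4, the atrial light chain, was at 0.01 ± 0.09. The epicardial genes Wt1 and Aldh1a2 were at 0.20 ± 0.19 and 0.09 ± 0.38, and Msln and Krt19 were too dim to test. The 4 Schwann cell genes were all below 0 in the mean low sodium effect (55.1% of all probes), with a median of −0.22. Their median was 0.079 in the authors' deposited table, and 0 were at an unadjusted p under 0.05 by limma.

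Mcam, a surface protein of vascular smooth muscle and pericytes, was at −0.48 ± 0.13 in the mean low sodium effect. Abcc9, a potassium channel subunit in the same list that is not restricted to pericytes, was at 0.25 ± 0.11.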
